A study of Mus musculus with 16 samples.

Results

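The regions described here were open chromatin regions centred at the annotated ends of transcripts, which were named transcription termination site (TTS) regions. Touching or overlapping ATAC-seq peaks of 8 libraries were joined into 16566 regions, each of which was placed by its centre in the GENCODE annotation of GRCm38 (mm10). A centre inside the window that reaches 1000 bp upstream and 100 bp downstream of a transcription start site was called a promoter. Of the remaining centres, one that lay at most 100 bp before or 1000 bp after a transcript end was called a TTS. This gave 357 regions, of which the 339 with at most 50% soft-masked (repeat) bases were kept. The limit fell between a region at the end of Sri, with 49.1% masked bases and a peak in 1 Brg1fl/fl library, and a region at the end of Gm13919, with 52.0% and peaks in 3 Brg1fl/fl libraries. The rule used position and repeat content only and no difference between groups. Since a region had to be a peak in at least 1 library, the longest peak list had the most say in which ends were included.

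ATAC-seq marks open chromatin by letting the Tn5 transposase cut it and tag it with adapters, and was performed on 50000 splenic B cells per library from adult C57BL/6 mice. The 4 control libraries came from CD23-Cre Brg1fl/+ mice and the 4 Brg1-deficient libraries from CD23-Cre Brg1fl/fl mice, so every mouse carried the Cre and the control cells had themselves lost 1 allele of Smarca4, the gene of Brg1. CD23-Cre is active in mature B cells. The cells were depleted of CD43-positive cells and activated in culture with LPS (10 µg/mL) and IL-4 (20 ng/mL). The activation lasted 96 hours according to the series' design text and the study's methods for ATAC-seq, while the sample labels give 72 hours in a treatment text that speaks of RNA. The deposited files are named so that libraries 1 and 2, and libraries 3 and 4, of a genotype form pairs, and what a pair shares was not stated. The number of mice behind these libraries was not stated either, so p-values measured the spread between these libraries, part of which may be technical.

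The end of a gene is where the polyadenylation signal is read by the cleavage machinery, after which RNA polymerase II runs on past the gene before it lets go of the DNA. Ends of genes are depleted of nucleosomes over the poly(A) signal in many organisms, and an end can also lie beside, or inside, the promoter of a neighbouring gene or an enhancer within the gene. Brg1 is the ATPase of the BAF (SWI/SNF) complexes, which slide and evict nucleosomes and are best known at enhancers and promoters. A TTS region is therefore a class by position and not by function.

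The sequence around the summit is printed for 6 regions, namely the 2 with a peak in every Brg1fl/+ library and in no Brg1fl/fl library (Mir7687 and Elf4), 3 of the 5 whose height differed between genotypes (Mid1, Sertad1 and Vps45), and 1 found only in Brg1fl/fl libraries (Ly9). Each is 121 bases of GRCm38 (mm10), 60 either side of the summit, 5′ to 3′ on the strand of the gene named. Capitals mark matches to the motifs searched, which were CTCF in Mir7687, Sp1 (GGGCGG) in Elf4 and Mid1, NF-κB in Mid1, ETS (CCGGAAG) in Sertad1 and the E-box CAGCTG in Ly9. CTCF and NF-κB were searched as patterns that allow several bases at some positions.
Mir7687 (chr8:120538857-120538977, plus strand): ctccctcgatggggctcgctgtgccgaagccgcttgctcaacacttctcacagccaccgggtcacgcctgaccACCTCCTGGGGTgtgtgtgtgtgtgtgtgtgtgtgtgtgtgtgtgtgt
Elf4 (chrX:48410170-48410290, minus strand): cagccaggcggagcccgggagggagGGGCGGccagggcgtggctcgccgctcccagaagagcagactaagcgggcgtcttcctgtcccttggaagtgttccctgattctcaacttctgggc
Mid1 (chrX:169991222-169991342, plus strand): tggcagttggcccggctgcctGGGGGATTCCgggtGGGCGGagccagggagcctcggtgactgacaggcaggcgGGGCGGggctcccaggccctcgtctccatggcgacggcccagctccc
Sertad1 (chr7:27490803-27490923, plus strand): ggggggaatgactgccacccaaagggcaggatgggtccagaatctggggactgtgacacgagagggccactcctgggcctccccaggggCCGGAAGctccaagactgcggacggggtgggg
Vps45 (chr3:96044698-96044818, minus strand): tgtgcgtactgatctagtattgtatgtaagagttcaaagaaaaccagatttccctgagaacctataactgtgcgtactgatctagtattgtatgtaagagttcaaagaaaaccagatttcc
Ly9 (chr1:171590612-171590732, minus strand): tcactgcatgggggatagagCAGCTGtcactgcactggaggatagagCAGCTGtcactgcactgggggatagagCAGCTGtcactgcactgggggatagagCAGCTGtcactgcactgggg
The summit of Vps45 held none of the 14 motifs and its bases recur every 68 bp, as can be read where the opening tgtgcgtac returns. At Ly9 the bases around each CAGCTG return after 27 bp, and at Mir7687 the CTCF match ran into a gt repeat.

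The lists held between 6271 and 14614 peaks, and Brg1fl/+ library 1 had the longest and Brg1fl/fl library 2 the shortest. Deeper libraries give longer lists, so the absence of a peak means only that none was detectable in that library, and not that the chromatin was closed. Read counts per region were not used here, but the number of fragments at each summit could be recovered from the deposited fold and −log10 p for all 1041 pairs of a TTS region and a library that detected it, to within 0.002 of the −log10 p. The median was 17 to 24 fragments per library, with a range from 5 to 286, and a counting error of that size lies behind each single fold. Intervals on such counts would cover counting error only. Among B cell markers the promoters of Ms4a1 and Pax5 held a peak in all 8 libraries, Ebf1 in 6 and Cd79a in 1, while those of Cd79b and Cd22 held none. None of 12 markers of T cells, myeloid cells, NK cells and erythroid cells had a promoter peak in any library. The promoter of Smarca4 held a peak in all 8 libraries, which is no check of the deletion.

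TTS regions were found in very different numbers in the 8 libraries. Brg1fl/+ libraries 1 to 4 detected 308, 177, 79 and 101 of the 339, or 90.9%, 52.2%, 23.3% and 29.8%. Brg1fl/fl libraries 1 to 4 detected 107, 67, 100 and 102, or 31.6%, 19.8%, 29.5% and 30.1%. The order followed the length of the lists in part only, since Brg1fl/fl libraries 1, 3 and 4 had longer lists than Brg1fl/+ library 4 but detected TTS regions in about the same number. Brg1fl/+ library 1 stood apart: 157 TTS regions (46.3%) were found in 1 library only, and 132 of these (84.1%) in that library. The genotype comparisons below are therefore also given without it.

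**Figure D1:**
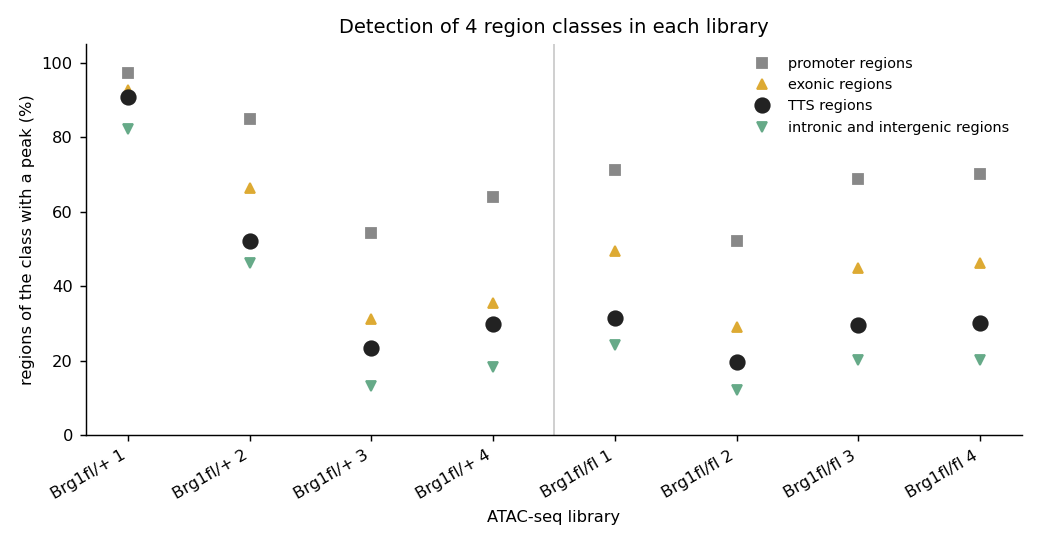
Percent of TTS, promoter, exonic, and intronic and intergenic regions (all with at most 50% soft-masked bases) in which each library had a peak, one point per library, by genotype. In every library the TTS value lies below the promoter value and above that of intronic and intergenic regions, and Brg1fl/+ library 1, at 90.9% of TTS regions, lies far above the other libraries.

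A small group of TTS regions was found everywhere. 44 (13.0%) had a peak in all 8 libraries, as against 42.8% of promoter regions, 20.5% of exonic regions, and 5.81% of intronic and intergenic regions. Between these ends of the range 51 were found in 2 libraries, 26 in 3, 12 in 4, 11 in 5, 17 in 6 and 21 in 7. 105 were found in at least 4 libraries.

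**Figure D2:**
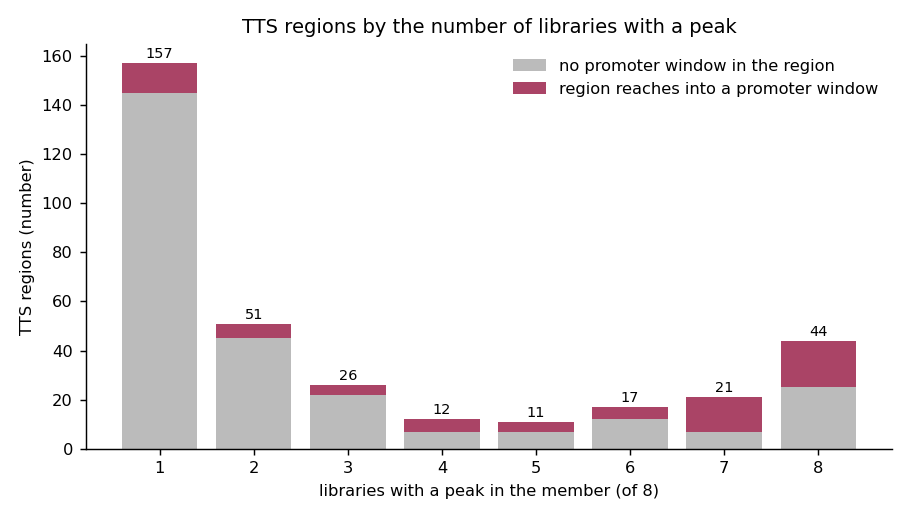
Number of TTS regions by the number of libraries (1 to 8) with a peak, split by whether the region reached into a promoter window. The first bar holds 157 regions and the last 44, and of the 44 found in all 8 libraries 19 reached into a promoter window, as against 12 of the 157 found in 1.

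Within each library TTS regions stood between promoters and intronic and intergenic regions in detection, fold and rank. Over the 8 libraries 38.4 ± 23.3% (SD, n = 8) of TTS regions were detected, 31.9 points fewer than of promoters (70.3 ± 15.0%), 11.0 points fewer than of exonic regions and 8.83 points more than of intronic and intergenic regions. The direction was the same in 8 of 8 libraries in each of these comparisons (two-sided exact sign-flip test over the libraries, p = 0.00781, the smallest that 8 libraries allow, adjusted p = 0.00938 over 12 comparisons). The median fold, which is the height of the summit over the background of its own library as MACS2 gives it, was 7.31 ± 0.633 at TTS regions and 10.1 ± 0.945 at promoters. It was 0.457 below that of exonic regions and 0.933 above that of intronic and intergenic regions, each in 8 of 8 libraries (exact sign-flip test, p = 0.00781, adjusted p = 0.00938). TTS peaks thus sat lower in the lists: ranked by q, where 0% is the best peak, their median was at 61.8% as against 41.2% for promoters and 74.3% for intronic and intergenic regions, with the same p in each case. The rank could not be told from that of exonic regions (difference −0.35 points, exact sign-flip test, p = 0.867, adjusted p = 0.946). TTS peaks were narrower than promoter peaks by 74.4 bp and than exonic peaks by 53.3 bp (exact sign-flip test, p = 0.00781, adjusted p = 0.00938), with a mean of the library medians of 377 bp, while the difference of 0.875 bp from intronic and intergenic peaks was within the spread between libraries (SD of the difference 29.5 bp, exact sign-flip test, p = 0.977). These tests speak of the libraries, which share the same regions. Without Brg1fl/+ library 1 the difference in detection from promoters was −35.6 points, with all 7 remaining libraries in the same direction (exact sign-flip test, p = 0.0156, the smallest possible over 7). All 339 TTS regions were kept here, 132 of which were found in that library only, so this check is not free of it.

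In base composition the TTS regions also lay between the other classes. The median GC content was 56.7%, as against 65.1% in promoters, 66.1% in exonic regions and 51.4% in intronic and intergenic regions. Of the TTS regions 127 (37.5%) were CpG-rich (an observed to expected CpG ratio of at least 0.6 and a GC content of at least 50%), as against 85.7%, 73.2% and 14.9% of the other classes in the same order. Chromosome 7 held 35 of them (10.3%, against 6.82% of all regions), chromosome 11 held 32 and chromosome 4 held 27.

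Most of the ends were not the far ends of coding genes. The nearest transcript end belonged to a protein-coding gene in 228 cases (67.3%), to a lincRNA in 25, to an antisense gene in 22, to an snRNA in 12 and to a miRNA in 11. Of the 228, 55 were ends of retained-intron transcripts, 23 of processed transcripts and 13 of transcripts subject to nonsense-mediated decay, so the end often lay inside the gene. 106 regions (31.3%) lay at the outermost end of a protein-coding gene, and the centre of 221 (65.2%) lay within the body of a coding gene. The poly(A) signal itself separated these groups. AATAAA or ATTAAA stood in the last 40 bases of 69.6% of the outermost ends of all coding genes. For TTS regions the nearest transcript end was read, which need not be the outermost one. The signal stood there for 63.2% of the regions at an outermost coding end (67 of 106) and 16.7% of the others (39 of 233). For nearest ends of retained-intron transcripts it was 21.8% (12 of 55). These shares come from the reference sequence, on the transcript's strand, and are given as a description.

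Detection differed with what else lay near the end. The 69 regions that reached into a promoter window, although their centre lay outside it, were detected in 64.5 ± 18.9% (SD, n = 8 libraries) of cases, 32.8 points more than the other 270. CpG-rich regions were detected in 53.5 ± 19.1%, 24.2 points more than the rest, and the 168 with a start site within 2000 bp in 44.1 ± 22.9%, 11.4 points more than the rest. All 3 differences held in 8 of 8 libraries (exact sign-flip test, p = 0.00781, adjusted p = 0.0137 over 7 subtypes). The 52 regions that held a start site had a peak in 5.90 libraries on average and the others in 2.56. Regions were joined over all libraries, so a region found in more libraries can be wider and reach further. The median width was 608 bp with a promoter window and 358 bp without. It was 716.5 bp with a start site inside and 364 bp without. These groupings are therefore not independent of detection, and the part of width was not tested. By distance, the 57 regions whose nearest start lay 101 to 300 bp from the centre had a peak in 5.05 libraries on average and the 97 with none within 5000 bp in 2.52. CpG content and a near start overlapped but were not the same property: the 88 regions with both had a peak in 4.67 libraries on average, the 39 with only CpG richness in 3.41, the 80 with only a near start in 2.28 and the 132 with neither in 2.39.

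Ends without a promoter beside them were found less often. Regions at the outermost end of a coding gene were detected 4.55 points more often than the others (7 of 8 libraries, exact sign-flip test, p = 0.0156, adjusted p = 0.0156). When the 76 of them that reached into no promoter window were set against all other TTS regions, the sign turned, with a difference of −8.77 points (7 of 8 libraries lower, exact sign-flip test, p = 0.0156, adjusted p = 0.0156). Those other regions included the 69 that reached into a promoter window, so the test does not compare like ends. The 76 were detected in 31.6%, beside 31.7% of all 270 regions that reached into no promoter window. Convergent ends, where another coding gene on the opposite strand ends close by, were rare (22 regions) and were detected in 23.9 ± 26.6%, 15.5 points less than the rest, in 8 of 8 libraries (exact sign-flip test, p = 0.00781, adjusted p = 0.0137). The 27 regions whose nearest end was that of a small RNA, such as an snRNA or a miRNA, were detected in 50.5 ± 19.5%, 13.1 points more than the rest (7 of 8 libraries, exact sign-flip test, p = 0.0156, adjusted p = 0.0156). Their median width was 536 bp, beside 396.5 bp for the rest, and the part of width was not tested. The promoter window, small RNA and combined groups were added after the values had been seen.

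The regions highest in all lists were led by Lars2, the mitochondrial leucyl-tRNA synthetase. Its region (chr9:123461813-123462182) lay inside the gene, 99 bp past the end of a retained-intron transcript and 7208 bp from the nearest start site. Its fold was 26.5, 23.7, 22.9 and 22.8 in Brg1fl/+ libraries 1 to 4 and 21.9, 20.7, 20.9 and 19.9 in Brg1fl/fl libraries 1 to 4, on 74 to 202 fragments. No other TTS region was in the top 1.49% of every list. All 4 Brg1fl/+ folds lay above the Brg1fl/fl folds, but the promoters' folds were lower in the same libraries too, and after centring on the libraries' medians the log2 difference was 0.01 ± 0.09 (SE, limma, adjusted p = 0.980).

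The other 9 regions that ranked best in their worst list lay at different kinds of ends. Those of Zfp771, a zinc finger gene (chr7:127253910-127254602), Cacna1a, a voltage-gated calcium channel subunit (chr8:84639160-84639746) and Prdm2, a histone methyltransferase (chr4:143161781-143162566), lay inside the gene, with folds of 11.4 to 18.5 over the 8 libraries. Those of Manf, an endoplasmic reticulum stress protein (chr9:106886975-106887452), and of the predicted miRNA Gm24157 (chr11:52098386-52099227) held the start sites of Rbm15b, a cofactor of m6A methylation, and Ppp2ca, the catalytic subunit of protein phosphatase 2A, at 214 and 126 bp from their centres. Non-coding ends made up a further 3, which were A230052G05Rik (chr8:70865401-70866108), the lincRNA 1810012K08Rik (chr2:26139920-26140704) and the processed pseudogene Gm21769 (chr8:20122140-20122908). Ctdsp1, a phosphatase of the polymerase's C-terminal domain, was the only one of the 10 at the outermost end of a coding gene with no start site inside (chr1:74397286-74398118), 417 bp past that end and 3392 bp from the nearest start. Its folds were 13.7, 15.7, 12.1 and 14.6 in Brg1fl/+ and 10.7, 10.7, 11.6 and 13.2 in Brg1fl/fl libraries, with overlap between the genotypes.

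Of the 44 regions found in all 8 libraries 13 lay at the outermost end of a coding gene, and 9 of these 13 held a start site. They included the ends of Sos2, a Ras exchange factor, beside the start of Vcpkmt, of Mip beside Timeless, and of Camk2g beside Ndst2. The remaining 4 were at the ends of Ctdsp1, Sertad1, Plac8 and Armc8. At Plac8 and Armc8 the bases around the summit formed a tandem repeat, as described further on.

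The question the design puts is whether loss of both alleles of Smarca4 changed the accessibility of these ends. As a class, TTS regions were detected in 49.0 ± 30.5% (SD, n = 4) in Brg1fl/+ and 27.7 ± 5.38% (SD, n = 4) in Brg1fl/fl libraries. The difference of −21.3 points did not exceed the spread between libraries (exact permutation test, two-sided over 70 assignments, p = 0.257, where the smallest possible is 0.0286), and it was −7.37 points without Brg1fl/+ library 1 (exact permutation test, p = 0.457). Leaving out that library kept the regions of every class unchanged. The 132 TTS regions found in it alone thus counted as undetected in every library left. With the lists cut to the same 6271 best peaks, 129 TTS regions remained, and detection was 58.1 ± 4.34% and 52.1 ± 2.31%, a difference of −6.01 points (exact permutation test, p = 0.0857). Set against promoters within the same library, which takes out part of the depth, TTS detection was lower by 26.0 ± 13.1 points in Brg1fl/+ and by 37.9 ± 3.66 points in Brg1fl/fl libraries, a difference of −11.8 points (exact permutation test, p = 0.0857). Without Brg1fl/+ library 1 it was −5.31 points (exact permutation test, p = 0.114). Set against intronic and intergenic regions, it was higher by 9.08 ± 2.30 points and 8.58 ± 1.26 points, which differed by −0.50 points (exact permutation test, p = 0.743). Without Brg1fl/+ library 1 they differed by −0.62 points (exact permutation test, p = 0.714). None of these differences passed the threshold of 0.05 as processed here, but some did under other settings. The difference against promoters was −9.74 points with a −log10 q of at least 10 and −12.9 points with regions in at least 2 libraries (exact permutation test, p = 0.0286 each). That against intronic and intergenic regions was −9.23 points without the repeat limit (exact permutation test, p = 0.0286), while 6 other settings turned its sign. Without the limit TTS detection itself differed by −20.9 points, beside −21.3 points with it. The intronic and intergenic set then took in repeat-rich regions too.

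One measure of the class did pass, and it was added after the values had been seen. It is not given here for the other classes, so it is not shown to be particular to TTS regions. The share of a library's peaks that lay in TTS regions was 2.11%, 1.60%, 1.24% and 1.35% in Brg1fl/+ libraries 1 to 4 and 1.16%, 1.10%, 1.19% and 1.19% in Brg1fl/fl libraries 1 to 4. Every Brg1fl/+ library was above every Brg1fl/fl library, with means of 1.58 ± 0.386% and 1.16 ± 0.0408% (SD, n = 4; difference −0.417 points, exact permutation test, p = 0.0286, the smallest possible). Without Brg1fl/+ library 1 the difference was −0.239 points (exact permutation test, p = 0.0286, the smallest possible). With lists of the same length it was −0.12 points (1.20 ± 0.0848% and 1.08 ± 0.0616%, exact permutation test, p = 0.0857), so the call was lost when only list length was made equal. When such lists were also limited to regions in at least 2 libraries, it was −0.108 points (exact permutation test, p = 0.0286). That alternative was added after the data were seen.

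Counted region by region, most TTS regions had a peak in fewer Brg1fl/fl than Brg1fl/+ libraries. This held for 241 of 339 (71.1%), where 47.2% of all 16566 regions did the same. Another 26 (7.67%) had a peak in more Brg1fl/fl libraries, where 16.7% of all regions did, and 72 (21.2%) in equal numbers. The 16566 include repeat-rich regions. Of the 14951 regions with at most 50% soft-masked bases, 49.6% had a peak in fewer and 12.1% in more Brg1fl/fl libraries. Intronic and intergenic regions leaned the same way, with 3317 of 4472 (74.2%) in fewer and 660 (14.8%) in more Brg1fl/fl libraries. The count leans on Brg1fl/+ library 1. Without it 207 TTS regions remained, of which 110 (53.1%) were found in a lower share of Brg1fl/fl than of Brg1fl/+ libraries and 53 (25.6%) in a higher share, beside 35.0% and 30.5% of 13320 regions in all. A peak in all 4 Brg1fl/+ libraries and in no Brg1fl/fl library was seen at 2 TTS regions (0.59%, beside 0.404% of all regions), and the reverse at 0 (0%, beside 0.169% of all regions). These shares are close to those of all regions. The count of 2 was 2 without Brg1fl/+ library 1 as well, but became 12 without Brg1fl/+ library 3 and 4 without Brg1fl/fl library 1.

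The 2 regions were those of Mir7687 and Elf4, whose summits are printed above. Mir7687 is a miRNA gene within a coding gene, and its region (chr8:120538727-120539130) was centred 175 bp past the end of the hairpin, with folds of 6.28, 7.38, 7.47 and 7.75 in Brg1fl/+ libraries 1 to 4 on 31, 21, 14 and 20 fragments. Elf4 encodes an ETS family transcription factor, and its region (chrX:48410058-48410361) lay 836 bp past the outermost end of the gene and 40942 bp from the nearest start, with folds of 7.83, 11.2, 7.79 and 8.07 on 17, 22, 11 and 13 fragments. Neither had a peak in any Brg1fl/fl library. Both summits rested on at most 31 fragments per library.

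Other regions leaned the same way without reaching that pattern. That of Adora2a, an adenosine receptor (chr10:75326553-75326922), had folds of 12.6, 9.08 and 7.66 in Brg1fl/+ libraries 1, 2 and 4, and no peak in Brg1fl/fl libraries. That of Gm13091, an antisense gene (chr4:150566193-150566464), had folds of 10.8, 12.6 and 10.6 in the same 3 libraries and again none in Brg1fl/fl libraries. At Tspyl2, a gene of the nucleosome assembly protein family (chrX:152336429-152336908), the folds were 12.3, 11.8, 11.0 and 9.43 in Brg1fl/+ libraries and 6.36 in Brg1fl/fl library 1, the only Brg1fl/fl library with a peak.

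In the opposite direction the 5 regions with the largest difference in libraries were Ly9, Nid2, Crebrf, Ubr2 and Gm19459, with folds of 3.93 to 6.34. Ly9, a receptor of the SLAM family (chr1:171590382-171591413), had no peak in Brg1fl/+ libraries and folds of 4.11, 4.49 and 5.46 in Brg1fl/fl libraries 1, 2 and 4, on 10, 7 and 12 fragments. Nid2, a basement membrane protein (chr14:19808275-19809012), was found in Brg1fl/fl libraries 1 and 2 with folds of 4.49 and 6.05, and Crebrf, a regulator of CREB3 (chr17:26764426-26764777), in Brg1fl/fl libraries 2 and 3 with 3.93 and 4.47. Ubr2, a ubiquitin ligase (chr17:46950332-46951513), was found in Brg1fl/+ library 1 with a fold of 4.78 and in Brg1fl/fl libraries 1, 2 and 4 with 4.33, 4.70 and 6.34. The pseudogene Gm19459 (chr10:58239160-58239716) was found in Brg1fl/+ libraries 1 and 2 and in all 4 Brg1fl/fl libraries, with folds of 4.35 to 6.00.

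**Figure D3:**
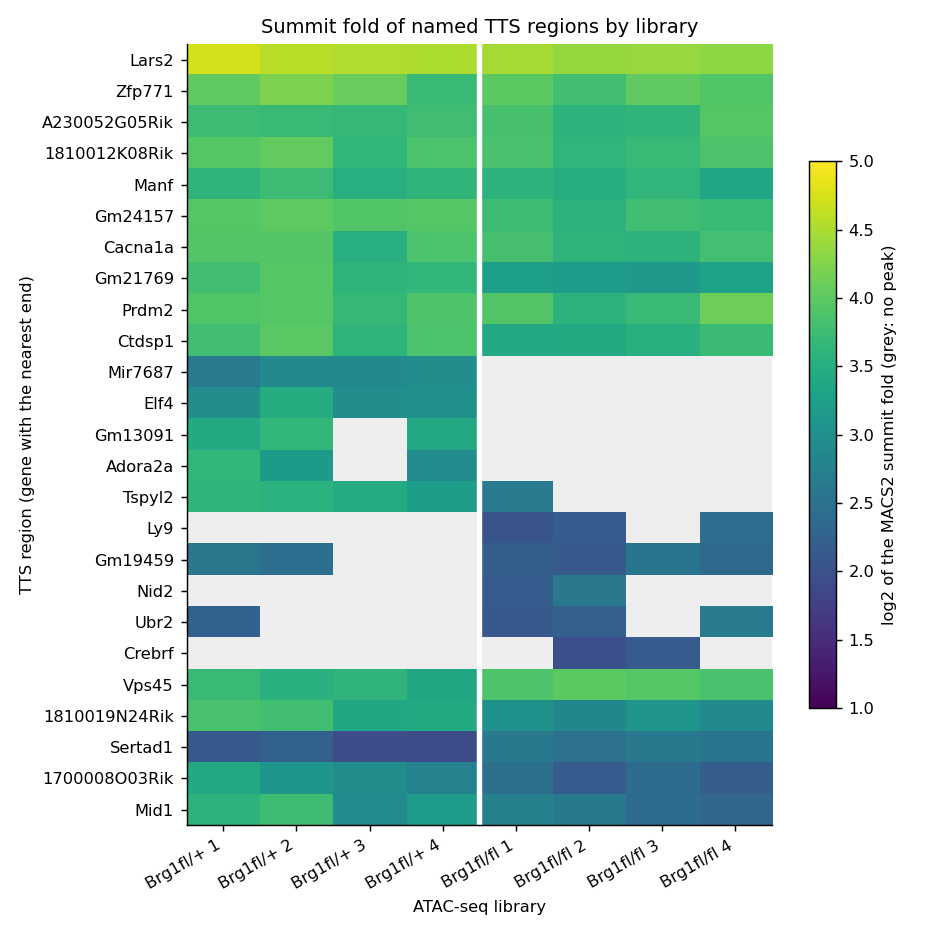
Heat map of the log2 fold of the summit over background for TTS regions named in the text (rows) in each library (columns, Brg1fl/+ on the left and Brg1fl/fl on the right), with grey where the library had no peak. Mir7687 and Elf4 are coloured in Brg1fl/+ libraries only, Ly9 in Brg1fl/fl libraries only, and Lars2, with folds between 19.9 and 26.5, is the brightest row.

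A repeat check was therefore added after these values had been seen. A summit was counted as a tandem repeat where at least 80% of the bases of a 201-base window around it matched the base at 1 fixed shift of 5 to 100 bp. This was met by 17 of 339 TTS regions (5.01%), 0.129% of promoters, 1.18% of exonic regions and 10.9% of intronic and intergenic regions, all of which had at most 50% soft-masked bases. Among TTS regions with more Brg1fl/fl libraries it was met by 7 of 26 (26.9%) and among those with fewer by 3 of 241 (1.24%). Among all regions with at most 50% soft-masked bases it was met by 349 of 1809 (19.3%) and 88 of 7421 (1.19%). The shift was 34 bp at Nid2 (98.8% of bases), 92 bp at Crebrf (97.2%) and 74 bp at Ubr2 (97.6%), while Ly9, at 73.0% for a shift of 27 bp, was below the limit. The 51 bases at the summit stood more than once in the genome, without mismatch, for 34 TTS regions (10.0%), with 7 copies for Nid2, 4 for Crebrf, 3 for Gm19459 and 1 for Ubr2 and Ly9.

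Tandem repeats made up a larger share of the TTS peaks in Brg1fl/fl libraries. The share was 3.25%, 3.31%, 6.33% and 6.80% in Brg1fl/+ libraries 1 to 4 and 9.35%, 14.5%, 6.93% and 7.84% in Brg1fl/fl libraries 1 to 4, with no overlap between the genotypes. The means were 4.92 ± 1.90% and 9.65 ± 3.38% (SD, n = 4; difference 4.73 points, exact permutation test, p = 0.0286, the smallest possible). The difference was 4.17 points without Brg1fl/+ library 1, 3.12 points without Brg1fl/fl library 2 and 4.79 points with lists of the same length (exact permutation test, p = 0.0857 each). The number of such peaks differed less, at 10, 6, 5 and 7 in Brg1fl/+ and 10, 10, 7 and 8 in Brg1fl/fl libraries (exact permutation test, p = 0.314), while the other TTS regions, which make up the rest of the share, were detected in 49.5% and 26.6% (exact permutation test, p = 0.257). Over all regions with at most 50% soft-masked bases the share of peaks at tandem repeats was 1.40 ± 0.193% in Brg1fl/+ and 3.14 ± 0.552% in Brg1fl/fl libraries (SD, n = 4; exact permutation test, p = 0.0286). How reads that match several copies were aligned is not given in the sources used here, and its part in these peaks was not tested.

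**Figure D4:**
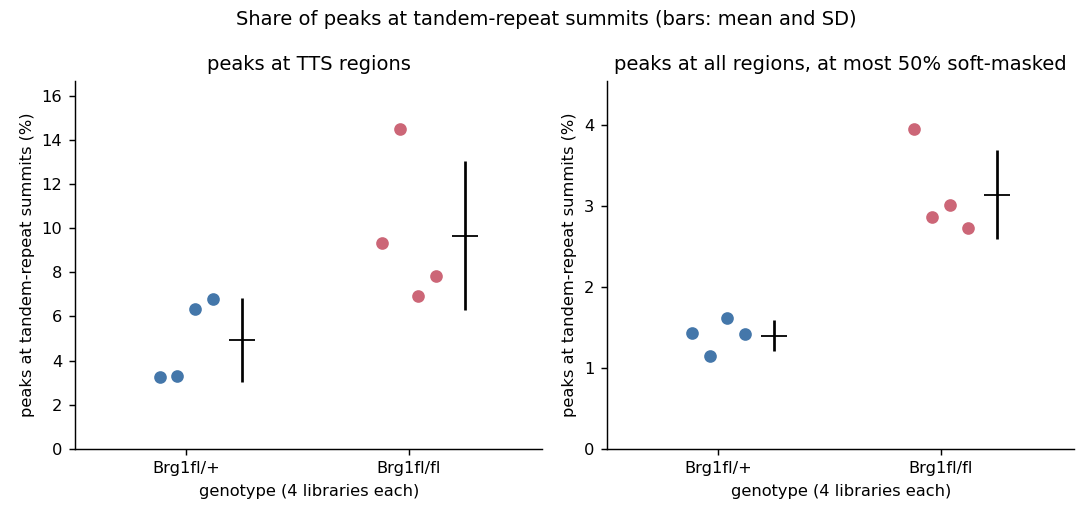
Percent of peaks whose summit lies in a tandem repeat, for peaks at TTS regions (left) and at all regions with at most 50% soft-masked bases (right), one point per library with the mean and SD of each genotype. All 4 Brg1fl/fl libraries lie above all 4 Brg1fl/+ libraries in both panels, with means of 9.65% and 4.92% on the left and 3.14% and 1.40% on the right.

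For the 44 TTS regions with a peak in every library, height could be compared directly. The log2 fold was centred on the median of each library over the 4593 regions found in all 8 libraries and fitted over all of them with limma. Of the 44, 3 were lower in Brg1fl/fl (6.82%, beside 2.16% of all 4593) and 2 were higher (4.55%, beside 3.31%) at an adjusted p under 0.05, and 11 had an unadjusted p under 0.05. Without Brg1fl/+ library 1, 3 were higher and 0 lower (limma), with 11 again at an unadjusted p under 0.05. The median log2 change of the 44 was −0.01, beside 0.03 over all 4593 regions, and 23 of the 44 changes were negative. Every Brg1fl/+ library was above every Brg1fl/fl library at 5 of the 44 (11.4%, beside 4.64% of all), and the reverse was seen at 2 (4.55%, beside 8.64%). Only regions with a peak in all 8 libraries enter here, so a region that fell below the threshold in any library could not be called.

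The 2 regions that rose were those of Vps45 and Sertad1. Vps45, a Sec1/Munc18 protein of endosomal traffic, had folds of 12.9, 11.7, 12.2 and 10.4 in Brg1fl/+ libraries 1 to 4 and 15.0, 16.0, 15.4 and 14.5 in Brg1fl/fl libraries 1 to 4, with no overlap. Its log2 change was 0.57 ± 0.11 (SE, limma, adjusted p = 0.00359). This region (chr3:96044533-96045001) lies within the gene, 12952 bp from the nearest start, and 100% of the bases of its summit window matched at a shift of 68 bp, with 3 copies of its 51 summit bases in the genome. Sertad1, a CDK4-binding coregulator of transcription, had folds of 4.39, 4.75, 3.84 and 3.82 in Brg1fl/+ and 6.11, 5.65, 6.17 and 5.90 in Brg1fl/fl libraries, again with no overlap. Its log2 change was 0.71 ± 0.16 (SE, limma, adjusted p = 0.0088). Its region (chr7:27490676-27491183) lies 614 bp past the outermost end of the gene, is unique at the summit, and holds the ETS match printed above. Both calls held without each library in turn, with adjusted p (limma) of at most 0.0185 for Vps45 and 0.0326 for Sertad1. Sertad1 was near the floor of the lists, with a worst rank by q of 94.4%. With a −log10 q of at least 5 it was no longer among the regions shared by all libraries. Only Vps45 was then called higher.

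The 3 regions that fell were those of Mid1, 1810019N24Rik and 1700008O03Rik. Mid1, a microtubule-bound ubiquitin ligase (chrX:169991120-169991639, inside the gene, 582 bp past the end of a shorter transcript), had folds of 12.0, 13.5, 7.58 and 9.15 in Brg1fl/+ and 6.71, 6.17, 5.35 and 5.02 in Brg1fl/fl libraries. Its log2 change was −0.63 ± 0.16 (SE, limma, adjusted p = 0.0220), on 59 to 286 fragments. The 51 bases at its summit stood 6 times in the genome. The lincRNA 1810019N24Rik (chr7:12949440-12949987) had folds of 14.5, 13.9, 10.6 and 10.9 in Brg1fl/+ and 8.23, 7.11, 8.50 and 7.57 in Brg1fl/fl libraries, a log2 change of −0.45 ± 0.13 (SE, limma, adjusted p = 0.0364). 1700008O03Rik (chr7:44359949-44360429, 48 bp past the end of a transcript) had folds of 10.7, 8.60, 7.79 and 6.82 in Brg1fl/+ and 5.59, 4.49, 5.34 and 4.55 in Brg1fl/fl libraries, a log2 change of −0.55 ± 0.17 (SE, limma, adjusted p = 0.0421). The genotypes did not overlap at any of the 3, but none of the calls was safe against leaving out a library: without Brg1fl/+ library 1 the adjusted p (limma) was 0.0599 for Mid1, 0.101 for 1810019N24Rik and 0.126 for 1700008O03Rik.

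The next region in order was Lyst, the lysosomal trafficking regulator (chr13:13753005-13755415), with a log2 change of 0.56 ± 0.17 (SE, limma, adjusted p = 0.0510). Its summit too was a tandem repeat, of 34 bp. The pseudogene Gm21769 had folds of 13.9, 15.5, 12.1 and 12.6 in Brg1fl/+ and 9.61, 9.30, 8.92 and 9.97 in Brg1fl/fl libraries, which did not overlap, but its log2 change of −0.31 ± 0.12 did not pass the test (SE, limma, adjusted p = 0.112).

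**Figure D5:**
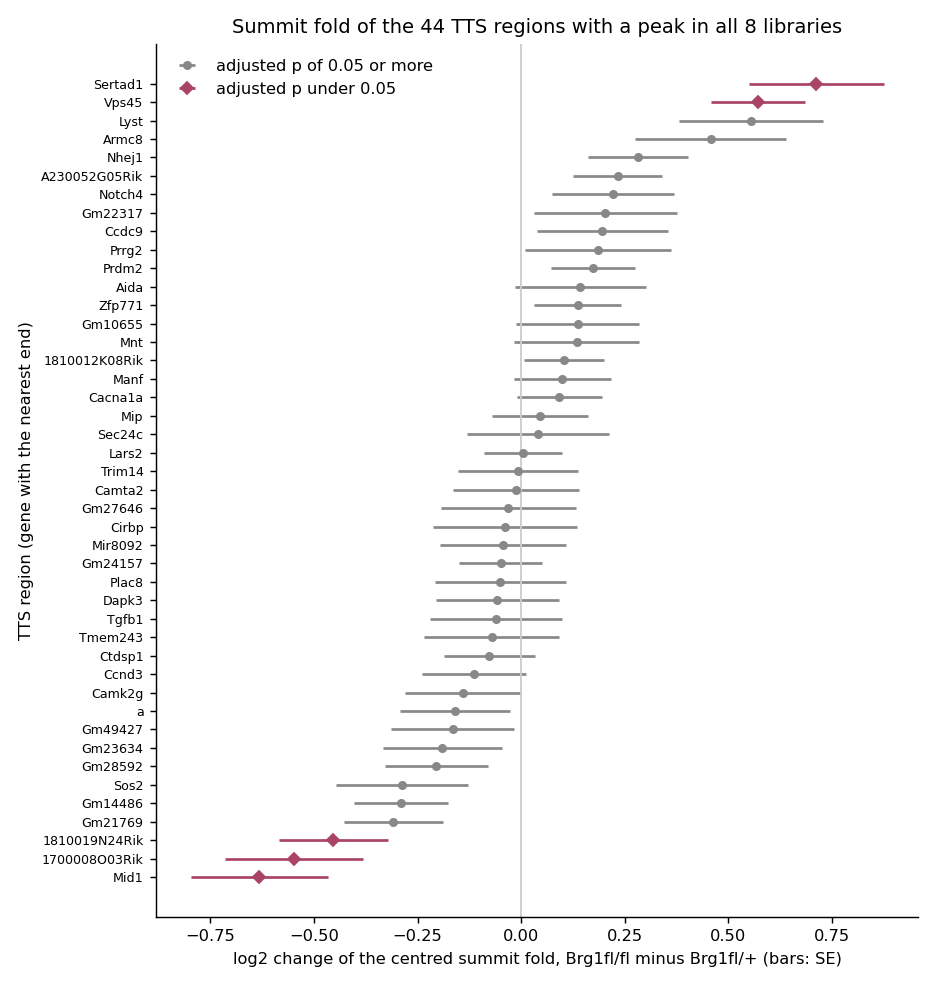
Log2 change in centred fold (Brg1fl/fl minus Brg1fl/+) with its SE for the 44 TTS regions found in all 8 libraries, in order of size, with those at an adjusted p under 0.05 (limma) in colour. Vps45 at 0.57 and Sertad1 at 0.71 are called higher, Mid1, 1810019N24Rik and 1700008O03Rik are called lower, and 23 of the 44 lie below 0.

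As a class the shared TTS regions stayed lower than shared promoters in both genotypes. The median log2 fold of the 44 minus that of shared promoters was −0.19 ± 0.08 in Brg1fl/+ and −0.29 ± 0.04 in Brg1fl/fl libraries (SD, n = 4). The difference of −0.10 did not pass (exact permutation test, p = 0.0857), nor did that of −0.08 without Brg1fl/+ library 1 (exact permutation test, p = 0.114).

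TTS regions were rare at coding genes in general. Of 21924 protein-coding genes 242 (1.10%) had one at an end, and 138 of the 242 (57.0%) also had a promoter region, as against 43.1% of all coding genes. By gene list, a TTS region was held by 1 of 46 genes of B cell identity and signalling (Pou2f2), 1 of 30 of the AP-1, NF-κB and immediate early genes (Rela), 1 of 45 cell cycle genes (Ccnd3), 0 of 28 SWI/SNF subunits and 1 of 25 genes of general transcription and 3′ end processing (Ints1). With 1 gene at most per list these shares cannot be told from that of all coding genes, and no direction of a list can be given.

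Each of these 4 genes is given with its values. Pou2f2 encodes Oct-2, a B cell transcription factor, and its region (chr7:25120383-25120777), inside the gene, had folds of 10.3, 10.0 and 12.1 in Brg1fl/+ libraries 1 to 3 and 5.91 and 5.87 in Brg1fl/fl libraries 1 and 3. At Rela, the p65 subunit of NF-κB (chr19:5648679-5649131, 775 bp past the outermost end), the folds were 11.8, 10.1 and 6.64 in Brg1fl/+ libraries 1, 2 and 4 and 4.99, 5.33 and 5.49 in Brg1fl/fl libraries 1 to 3. Ccnd3, a D-type cyclin (chr17:47507982-47508435), had a peak in all 8 libraries. Its folds were 14.3, 12.9, 11.8 and 11.8 in Brg1fl/+ and 8.94, 8.28, 11.0 and 13.1 in Brg1fl/fl libraries, which overlapped (log2 change −0.11 ± 0.12 SE, limma, adjusted p = 0.621). Ints1, a subunit of the Integrator complex (chr5:139750774-139750990), was found in Brg1fl/+ library 1 alone, with a fold of 5.74. Where Pou2f2 and Rela had a peak, the uncentred Brg1fl/+ folds were above the Brg1fl/fl folds, as was the median fold of promoters (9.96 to 11.3 in Brg1fl/+ and 8.76 to 9.51 in Brg1fl/fl libraries). They were not tested, since limma was run only on regions with a peak in all 8 libraries.

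In sequence, TTS summits again fell between the other classes. Each motif was searched on both strands within 100 bp of the summit, and a match is a description and not a bound site. NF-κB and CTCF were searched as patterns that allow several bases at some positions. The others were searched as exact letters, with N in AP-1 for any base. The share of TTS regions with a match lay between that of promoters and that of intronic and intergenic regions for 11 of 14 motifs. The Sp1 letters GGGCGG, common in CpG islands, were in 35.1% of TTS regions, 68.1% of promoters, 49.4% of exonic regions and 17.6% of intronic and intergenic regions. The ETS letters CCGGAAG were in 8.55% of TTS regions and 18.1% of promoters. Motifs of distal elements went the other way: RUNX (TGTGGT) was in 18.3% of TTS regions and 7.02% of promoters, and AP-1 (TGANTCA) in 8.85% and 2.34%. NF-κB and PU.1 (GAGGAAGT) were 2 of the 3 that fell outside, with shares of 15.0% and 5.90% at TTS regions, above those of the other classes. The third was the E-box CACGTG, in 5.90% of TTS regions and 5.90% of intronic and intergenic regions. Within 250 bp of the summit NF-κB, at 22.7% of TTS regions, was still above the other classes. PU.1 was not, at 8.55% beside 8.74% of intronic and intergenic regions.

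Within TTS regions Sp1 followed CpG content and breadth of detection. GGGCGG was found in 30 of the 44 regions detected in all 8 libraries (68.2%) and in 37 of the 157 detected in 1 (23.6%), in 81 of the 127 CpG-rich regions (63.8%) and in 38 of the other 212 (17.9%). AP-1, RUNX and PU.1 letters were in 3.94%, 10.2% and 0.787% of the CpG-rich regions and in 11.8%, 23.1% and 8.96% of the others. The regions share libraries and base composition, so these shares are not independent of each other.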

How the data were processed

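Per the submitters' processing notes and the paper's methods, reads were aligned to mm10 with Bowtie2 and peaks were called in each library with MACS2. Versions and options are not given in the sources used here. The deposited lists give the authors' fold of each summit over the local background of its own library (a ratio) as well as its deposited −log10 p and q-value (−log10 q). The lowest −log10 q was 1.31. The authors' read coverage, their DESeq2 comparison of it and 8 RNA-seq libraries were not analysed here. Detection (at least 1 bp of overlap) and the fold took the place of coverage.

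From these lists, regions were joined and placed with GENCODE M21. The TTS regions, tests and gene lists were chosen with earlier results of these data known. Genotypes were compared by exact permutation over libraries, classes by exact sign flips within libraries, and heights with limma 3.58.1 (log2 fold, centred by library, Benjamini-Hochberg adjustment, threshold 0.05). TTS regions were named by the gene with the nearest transcript end: the 10 best by worst rank, every genotype-exclusive region, up to 5 per direction with the largest difference in libraries, every region called by limma, and those of the gene lists. A marker gene and 1 gene list, with its region, are not reported here. The fragments at a summit were solved from fold and −log10 p. With 4 libraries per genotype, precision is limited by their number and depth. Alternatives changed the peak threshold, list length, overlap, repeat limit, windows, annotation, libraries, block, centring and motif window. The steps were tested on simulated data. R 4.3.3 and Python 3.11.15 were used, the latter with scipy 1.17.1, numpy 2.4.6, pysam 0.24.0 and pandas 2.3.3.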

Additional observations from a re-analysis of the deposited data

Results flagged for a closer look

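Within each library the percent of TTS regions detected minus that of promoters was checked for libraries far from the others of their genotype with Dixon's test. Brg1fl/+ library 1, at −6.43 points, lay apart from the other Brg1fl/+ libraries (−34.1 to −31.0 points). Brg1fl/fl library 2, at −32.4 points, lay apart from the other Brg1fl/fl libraries (−40.0 to −39.4 points). These were the longest and the shortest of the 8 lists, and the part of list length in the gaps was not tested. Among 16 groups checked in this way, chance flags about 1 in 20.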

How the results depend on the processing

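Of 323 alternative values 241 kept their direction and their side of the threshold, or for counts and shares stayed close to the value reported. The lower detection, fold and rank and the narrower width of TTS regions against promoters held under all 17 alternatives each. The other genotype results rest on small differences, and where they changed the cause was not tested.

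Raising the peak threshold to a −log10 q of at least 10 gave −9.74 points for TTS minus promoter detection (exact permutation test, p = 0.0286), 3.34 points in place of −0.50 for TTS minus intronic and intergenic detection, −0.256 points for the share of peaks (p = 0.0857) and 1 region found only in Brg1fl/+. Cutting the lists to equal length gave 0.0733 points for TTS minus intronic and intergenic detection, −0.12 points for the share of peaks and 4.79 points for the tandem-repeat share (exact permutation test, p = 0.0857 for both shares), and 1 region was found only in Brg1fl/fl. With at least 50% of a region covered, TTS minus intronic and intergenic detection was 0.899 points and the centred fold differed by 0.0478 on the log2 scale. Without the repeat limit the first of these was −9.23 points (exact permutation test, p = 0.0286), while TTS detection itself differed by −20.9 points. Regions in at least 2 libraries gave −12.9 points against promoters (exact permutation test, p = 0.0286) and 3.03 points against intronic and intergenic regions. Equal lists as well, an alternative added after the data were seen, gave 0.513 points against intronic and intergenic regions. That alternative gave −7.14 points for detection and −0.108 points for the share of peaks (exact permutation test, p = 0.0286 for both). A promoter window of 2000 bp upstream to 500 bp downstream gave −0.33 points for the share of peaks (exact permutation test, p = 0.0571). That window, a TTS window to 500 bp downstream and protein-coding genes alone each left 1 region found only in Brg1fl/+ libraries.

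Leaving out 1 library at a time moved detection between −29.9 and −7.37 points, TTS minus promoter detection between −14.5 and −5.31, TTS minus intronic and intergenic detection between −1.51 and 0.262 (the last without Brg1fl/+ library 4), the centred fold between −0.132 and −0.0397 (p = 0.0286 by exact permutation without Brg1fl/+ library 4), the share of peaks between −0.528 and −0.239 (p = 0.0286 to 0.143) and the tandem-repeat share between 3.12, without Brg1fl/fl library 2, and 5.64 (p = 0.0286 to 0.0857). The detection values kept all 339 TTS regions each time, also those found only in the library left out. Regions found only in Brg1fl/+ numbered 2 to 12, with 12 without Brg1fl/+ library 3 and 4 without Brg1fl/fl library 1, and those found only in Brg1fl/fl 0 to 1. With limma, TTS regions called ranged from 2 to 5, those lower from 0 to 3, those higher from 2 to 3, and all regions called from 78 (without Brg1fl/+ library 2) to 418 (without Brg1fl/+ library 3). None was called lower without Brg1fl/+ library 1, Brg1fl/+ library 2, Brg1fl/fl library 3 or Brg1fl/fl library 4. A −log10 q of at least 5 left 3 TTS regions called, 1 of them higher, and rank by q in place of the fold left 1 lower. Mid1 lost its call in 4 alternatives, 1810019N24Rik in 7 and 1700008O03Rik in 9.

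Same-numbered libraries of the genotypes correlated weakly, by −0.0912 to 0.0126 in fold at shared regions and −0.119 to 0.00217 in detection of TTS regions. Whether same-numbered libraries were handled together was not tested. With the replicate block the share of peaks still differed by −0.417 points and the tandem-repeat share by 4.73 points, but the smallest p over 4 pairs is 0.125, and 4 TTS regions and 215 regions in all were called by limma. Averaging libraries 1 and 2 and libraries 3 and 4, which the deposited files group, leaves 2 values per genotype and gave −0.417 points for the share (exact permutation test, p = 0.333, the smallest possible). Within 250 bp of the summit, Sp1 was in 46.9%, ETS in 12.1%, RUNX in 31.9% and AP-1 in 14.7% of TTS regions, and 9 of 14 motifs lay between promoters and intronic and intergenic regions.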
